A study of Mus musculus with 9 samples.

Results

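H3K27me3, trimethylation of a lysine on histone H3, was mapped in 3 mouse pancreatic cancer cell lines by chromatin immunoprecipitation and sequencing, together with H3K4me3 and H3K27ac. The lines were a female line without Kdm6a (female KO), a male line without Kdm6a (male KO) and a male line that kept the gene (male WT). All came from the pancreas, had a mixed C57BL/6-SV129 background, grew in F12/DMEM with EGF and were left untreated. The labels do not give the Kdm6a allele, how it was deleted or whether a line is a single clone, and the deletion could not be checked in these lists, which were not tied to genes. There was 1 library per mark and line, 9 in all, with no female WT line. Differences between lines therefore have no replicate check, and no p-value was computed. Described here are the H3K27me3 regions held by all 3 lines away from H3K4me3. The enriched regions (islands) of the 3 H3K27me3 lists were merged on autosomes 1 to 19 where they overlapped by at least 1 bp, which gave 30751 merged regions. Of these, 7034 were overlapped by all 3 lists, and 4517 of the 7034 met no H3K4me3 region of any line. The members were thus chosen by the presence of H3K27me3 and the absence of H3K4me3 in the same lists that give the lengths below. These 4517 regions, called members here, made up 14.7% of all merged regions and 64.2% of those in all 3 lists.

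Polycomb repressive complex 2, whose catalytic subunit is Ezh2, writes H3K27me3, and the demethylase Kdm6a (also named UTX) removes it. H3K27me3 often forms broad domains over silent genes and gene-poor stretches, beyond the promoters where H3K4me3 is found. H3K27ac marks active enhancers and promoters and sits on the same lysine, so a single histone tail carries one mark or the other at that position.

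The library totals frame every value that follows. Reads in H3K27me3 regions numbered 18507923 in female KO and 4811961 in male KO, against 2396174 in male WT. The autosomal H3K27me3 lists covered 329, 237 and 145 Mb in the same order of lines, and the median autosomal region held 34.7, 16.6 and 14.8 reads per kb. The number of reads in regions thus moved with the covered length from line to line. The total depth is not known, and values from depth-scaled lists stand beside the main results.

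Members were wider at the median than all merged regions, with a merged width of 16.2 kb against 6.2 kb. Regions in all 3 lists that met H3K4me3 were wider still, at 31.8 kb. The 10th percentile of members was 6.4 kb and the 90th was 48 kb, and members ranged from 2.2 to 325.2 kb. Together they spanned 107 Mb. Of the autosomal H3K27me3 reads of each line, 26.5% for female KO lay in members, with 30.8% for male KO and 34.0% for male WT. The nearest H3K4me3 region of any line lay a median of 46.2 kb away, against 65.4 kb over all merged regions without H3K4me3, and 349 members (7.73%) lay within 5 kb of one. The rule used the same H3K4me3 lists, so this is no check of the label. A promoter with no called H3K4me3 would still count as a member, and this was not tested, because no gene was placed on the build of the files.

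The presence of all 3 lists did not mean that the same bases were covered in each line. The length covered by all 3 lists at once had a median of 4.6 kb, or 33.7% of the merged width. In 155 members (3.43%) no base was held by all 3 lists, so that the lists met only through a chain of overlaps. The female KO list covered 92.1% of the summed merged length, the male KO list 72.3% and the male WT list 49.0%. The outer borders of the members therefore mostly followed the female KO islands.

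The edge of the rule was narrow. In 18 members a border touched an H3K4me3 region without overlap, and 11 regions in all 3 lists were left out with only 200 bp of H3K4me3. The median merged width was 23.9 kb inside the rule and 23.4 kb outside it. The median covered length inside it was 23.9 kb in female KO, 9.8 kb in male KO and 4.8 kb in male WT, and outside it 23.4, 13 and 7.2 kb. At the 18 members, H3K27ac was present in 9 for female KO, 4 for male KO and 7 for male WT. At the 11 regions outside, it was present in 4, 5 and 4.

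H3K27me3 covered more of a member in either KO line than in WT. The median covered length was 14 kb in female KO, 10.2 kb in male KO and 6.6 kb in male WT. The middle 50% of members ran from 7.6 to 25.8 kb in female KO, from 5.8 to 19.6 kb in male KO and from 3.8 to 13 kb in male WT. These ranges overlapped between all lines. Summed over the members, the covered length was 98.7 Mb in female KO, 77.5 Mb in male KO and 52.5 Mb in male WT. The 2 KO sums were 1.88 and 1.48 times the WT sum, against 2.28 and 1.64 times over all autosomal merged regions. The lists that chose the members also give these lengths, so they are a description.

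**Figure D1:**
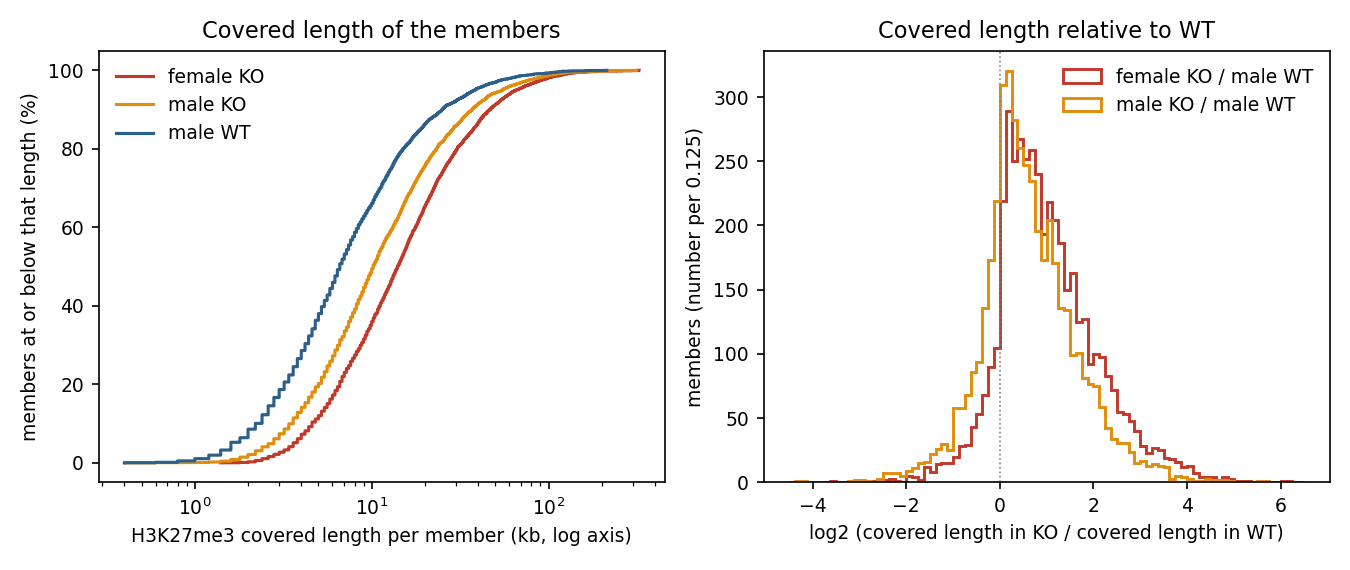
Left, share of the 4517 members (y axis, %) at or below a covered H3K27me3 length (x axis, kb, log scale) in each line. Right, number of members by log2 of the covered length in a KO line over WT (1 histogram per KO line, dotted line at equal length). The curves run from female KO (median 14 kb) through male KO (10.2 kb) to male WT (6.6 kb), and both histograms lie mostly right of equal length.

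Member by member, the covered length over WT had a median of 1.81 in female KO and 1.42 in male KO. Both ratios share the WT list as denominator, so they are given side by side and no joint count is drawn from them. In female KO, 3947 members (87.4%) were longer than in WT, against 88.3% of all merged regions found in both lists. In male KO the number was 3365 (74.5%), against 74.7%. At least 2 times the WT length was reached in 2029 members in female KO (44.9%, against 45% of all regions in both lists) and in 1412 in male KO (31.3%, against 29.6%). A length of at most 0.5 times WT was found in 90 members in female KO (1.99%, against 1.8%) and 205 in male KO (4.54%, against 4%). Members shorter than in WT numbered 519 in female KO (11.5%, against 10.6%) and 1083 in male KO (24.0%, against 23.3%). Since the rule used this contrast, nothing is read from the nearness of these shares. Depth-scaled lists left out regions weaker after scaling than nearly all WT regions. With these lists, 1456 members remained and the median ratios were 1.86 in female KO and 1.32 in male KO. Kept islands held their full called length, so these ratios do not test how depth affects length. The ratio fell towards 1 when each list had to cover at least 50% of the merged region, with 1.28 in female KO and 1.14 in male KO over 1744 members.

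Within members, most of the WT island length was covered by the KO islands. The rule asked for both KO lists, so WT islands met by neither KO list were left out beforehand. Without H3K4me3, 3928 merged regions over 11.3 Mb were in the WT list alone. The shares below are therefore partly set by the rule. Of the WT length in members, 7.25% was not covered in female KO and 15.9% was not covered in male KO. The WT islands were covered in full in 2850 members in female KO (63.1%) and in 1468 in male KO (32.5%). At regions in all 3 lists that met H3K4me3, these shares were 78.7 and 33.9%. None of the WT length was covered in 36 members in female KO (0.797%) and in 107 in male KO (2.37%), against 0.238 and 1.19% of the regions that met H3K4me3. These differences were not tested. Length outside the WT islands had a median of 6.6 kb per member in female KO and 4.2 kb in male KO. It summed to 50.1 Mb in female KO, which was 50.7% of that line's length in members, and to 33.3 Mb in male KO, which was 43.0%.

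Spread lay both past the WT borders and in the gaps between WT islands. At most 66.6% of the spread in female KO and 69.4% in male KO lay past the outermost WT borders, and the rest lay in gaps. These are upper limits, because the length was measured out to the outermost KO border. It thus includes any uncovered gaps between KO islands. Female KO islands passed the WT border on both sides in 2598 members (57.5%), on 1 side in 1519 (33.6%), and stayed inside it on both sides in 256 (5.67%). Male KO islands did so in 1807 (40.004%), 2000 (44.3%) and 448 members (9.92%). Passing both borders was more frequent at regions in all 3 lists that met H3K4me3, with 73.7% for female KO and 48.4% for male KO. Passing on 1 side was less frequent there, with 20.8 and 38.4%. These differences from the members were not tested. The median shift was 1.6 kb outward at the lower border and 1.4 kb at the upper border in female KO, and 0.6 kb at each in male KO. Lower and upper follow the genome coordinate only. Similar medians on the 2 sides thus do not show that single members spread evenly.

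In part of the members, separate WT islands lay together in 1 KO island, more often in female KO, the list with the most reads. How depth affects the number of called islands was not tested. At least 2 islands were found in 728 members in female KO (16.1%), in 2004 in male KO (44.4%) and in 2238 in male WT (49.5%). Of the 2238 members with several WT islands, 1611 (72.0%, exact 95% binomial interval 70.1 to 73.8%) had all of them within 1 female KO island. For male KO this was true of 749 (33.5%, 31.5 to 35.5%). The intervals cover counting error only and treat members as independent. At the 2517 regions in all 3 lists that met H3K4me3, the same shares were 85.1% in female KO and 25.4% in male KO, and these differences from the members were not tested.

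The absolute spread was longest at members with the longest WT islands, and the relative spread was largest at those with the shortest. The 290 members with under 2 kb covered in WT had a median ratio of 5.5 in female KO and 4 in male KO. Members with 2 to 5 kb covered in WT numbered 1351 and had a median ratio of 2.48 in female KO and 1.85 in male KO. The 625 members with at least 20 kb in WT had ratios of 1.36 and 1.19. Their median length outside WT islands was 14.2 kb in female KO and 10 kb in male KO, against 5 and 3.4 kb for the 1351 and 6 and 4.6 kb for the 290, so the length did not climb steadily from band to band. The WT length is the denominator of the ratio, so part of this order follows from the choice of bands. The ranking of members by covered length was partly shared, with a Spearman rho of 0.73 between female KO and male KO, 0.64 between female KO and male WT and 0.66 between male KO and male WT over the 4517 members. Members of different lines share their merged borders, and these coefficients are descriptive.

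Outside the WT borders, H3K27me3 of the KO lines fell off within a few kb and then changed little up to 20 kb. At 0.2 kb outside the outermost WT border, 73.5% of the 9034 borders were covered in female KO and 58.4% in male KO. At 5 kb these shares were 51.8 and 38.0%, and at 20 kb they were 50.9 and 40.8%. WT itself had no coverage at 0.2 kb, which the border fixes, and covered 26.3% of positions at 20 kb. Members thus lay in neighbourhoods where further H3K27me3 regions were common in each line. The median gap between neighbouring members was 34 kb, and 35.3% of the gaps were at most 10 kb.

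**Figure D2:**
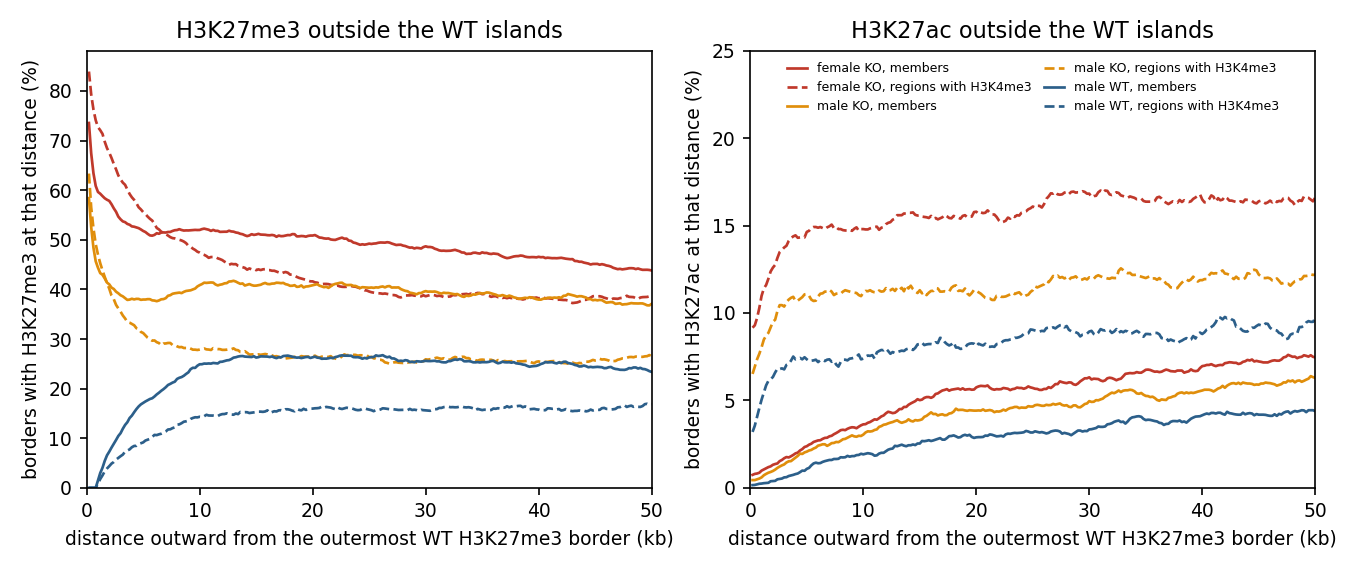
Share of WT outer borders (y axis, %) with H3K27me3 (left) or H3K27ac (right) at each distance outward (x axis, kb), for the members (solid lines, 9034 borders) and for regions in all 3 lists that meet H3K4me3 (dashed lines, 5034 borders). H3K27me3 of the KO lines drops over the first 5 kb and changes little from there to 20 kb, and H3K27ac climbs with distance from the WT borders of members in each line.

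H3K27ac was scarcer just outside the WT borders than farther out. Many of the nearest positions still lie inside the merged member, since female KO H3K27me3 covers most of them. At 0.2 kb from the WT border, H3K27ac covered 0.742% of the borders in female KO and 0.443% in male KO, against 0.155% in male WT. At 50 kb these shares were 7.46, 6.29 and 4.38%. Around regions that met H3K4me3, the shares at 0.2 kb were 9.16, 6.52 and 3.20%. H3K4me3 covered 4.52, 3.72 and 4.25% of the positions at 50 kb, and its share near the WT borders is largely fixed by the rule.

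The density of reads within the members was close to that of an average region of the same list. The median was 35.5 reads per covered kb in female KO and 17.1 in male KO, against 14.5 in male WT. Divided by the median region of the same list, these became 1.02 in female KO and 1.03 in male KO, against 0.979 in male WT. Each median lay within a few percent of 1, and its side of 1 changed with the processing in female KO and male WT. Regions in all 3 lists that met H3K4me3 were denser, with 1.69, 1.27 and 1.14 times the median region. The difference between the 2 kinds of region was not tested.

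**Figure D3:**
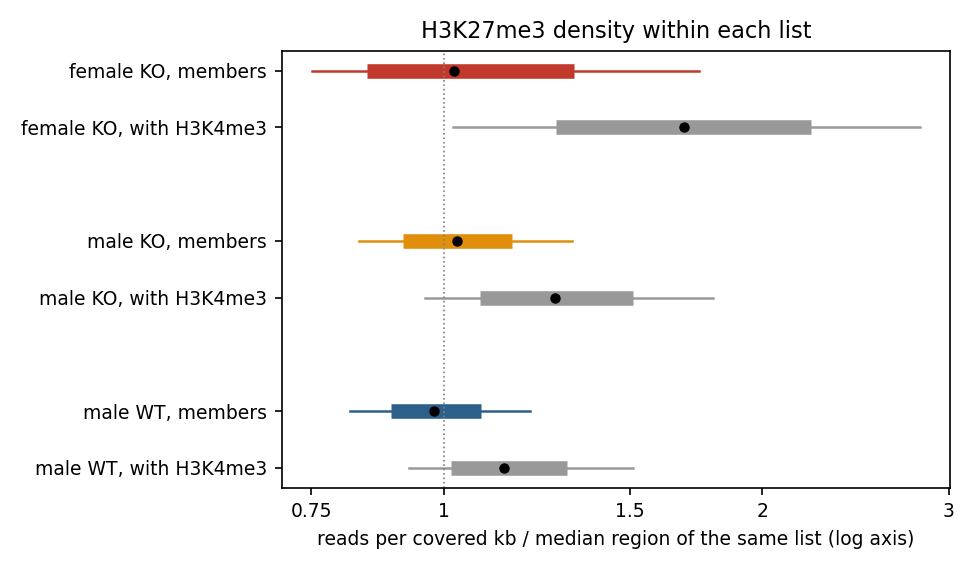
Reads per covered kb over the median region of the same list (x axis, ratio, log scale), for members (coloured) and for regions in all 3 lists that meet H3K4me3 (grey). Dots are medians, thick bars the 25th to 75th and thin bars the 10th to 90th percentile of regions. Members centre near 1 in each list, and the female KO bar is the widest.

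Members differed among themselves most in the deepest list. The standard deviation of log2 relative density over members was 0.48 in female KO and 0.27 in male KO, against 0.23 in male WT. A member at the median held 510 reads in female KO and 174 in male KO, against 94 in male WT, which gives a counting error of 4.43, 7.58 and 10.3%. A density of at least 2 times the list median was reached by 258 members in female KO (5.71%, against 7.25% of all regions in that list). In male KO this was 15 members (0.332%, against 0.854%) and in male WT 6 (0.133%, against 0.252%). Longer coverage went with higher density, with a Spearman rho of 0.57 over members in female KO and 0.36 in male KO, against 0.16 in male WT.

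The 5 members densest in WT had their shortest H3K27me3 in WT, by margins that varied between members and between the KO lines. Among members with at least 5 kb covered in WT, the highest WT density lay on chromosome 12 from 57615801 to 57655000 (build mm9, counted from 1, as for all positions here). It held 102 reads per kb over 35.2 kb in female KO, 28.6 over 37 kb in male KO and 30.4 over 33.6 kb in male WT. None of the 3 lines had H3K27ac there, and the nearest H3K4me3 was 56.8 kb away. The second (chr19:24954801-24982400) covered 27.6 kb in female KO, 27.6 kb in male KO and 20.8 kb in male WT. The third (chr8:124063001-124072400) was 8.6 kb long in female KO, 9.4 kb in male KO and 7 kb in male WT, at 150, 32.0 and 27.7 reads per kb. The fourth (chr1:89013601-89028400) differed more, with 14.8 kb in female KO, 8.2 kb in male KO and 6 kb in male WT. The fifth (chr19:4967601-5004400) lay 0.6 kb from H3K4me3 and covered 36.8, 26.2 and 25.6 kb. WT density was 26.0 to 28.2 reads per kb at these 4, and none had H3K27ac in any line.

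The 5 widest members were 1 or 2 islands in female KO, 5 to 27 in male KO and 14 to 32 in male WT. The widest, on chromosome 9 from 42295201 to 42620400, was 1 island of 325.2 kb in female KO, 10 islands over 315 kb in male KO and 32 islands over 197.2 kb in male WT. On chromosome 6 from 50715201 to 51036600 the lengths were 320.6 kb in 2 islands, 221.4 kb in 19 and 213.8 kb in 29. Male KO was thus close to WT at the second region and close to female KO at the first. The third, on chromosome 4 from 138059401 to 138377200, was covered over 317.8 kb in female KO, 191.8 kb in male KO and 57.2 kb in male WT. The fifth, on chromosome 6 from 99882001 to 100174000, was covered over 292 kb in female KO, 274.8 kb in male KO and 169 kb in male WT, with 2.8, 1.2 and 8.6 kb of H3K27ac.

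The fourth was also the member with the longest spread by the smaller of its KO lengths. It lay on chromosome 6 from 127624001 to 127917200, and female KO covered all 293.2 kb, male KO 261 kb and male WT 117.2 kb. Outside the WT islands were 176 kb in female KO and 149.6 kb in male KO. The WT length was split over 22 islands along the whole region, at 14.3 reads per kb. Further long spreads were on chromosome 9. From 64265401 to 64523600, female KO covered 258.2 kb, male KO 228.6 kb and male WT 96.8 kb. From 43213201 to 43454600, the lengths were 239.8, 233.8 and 104.6 kb, with no H3K27ac in any line.

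**Figure D4:**
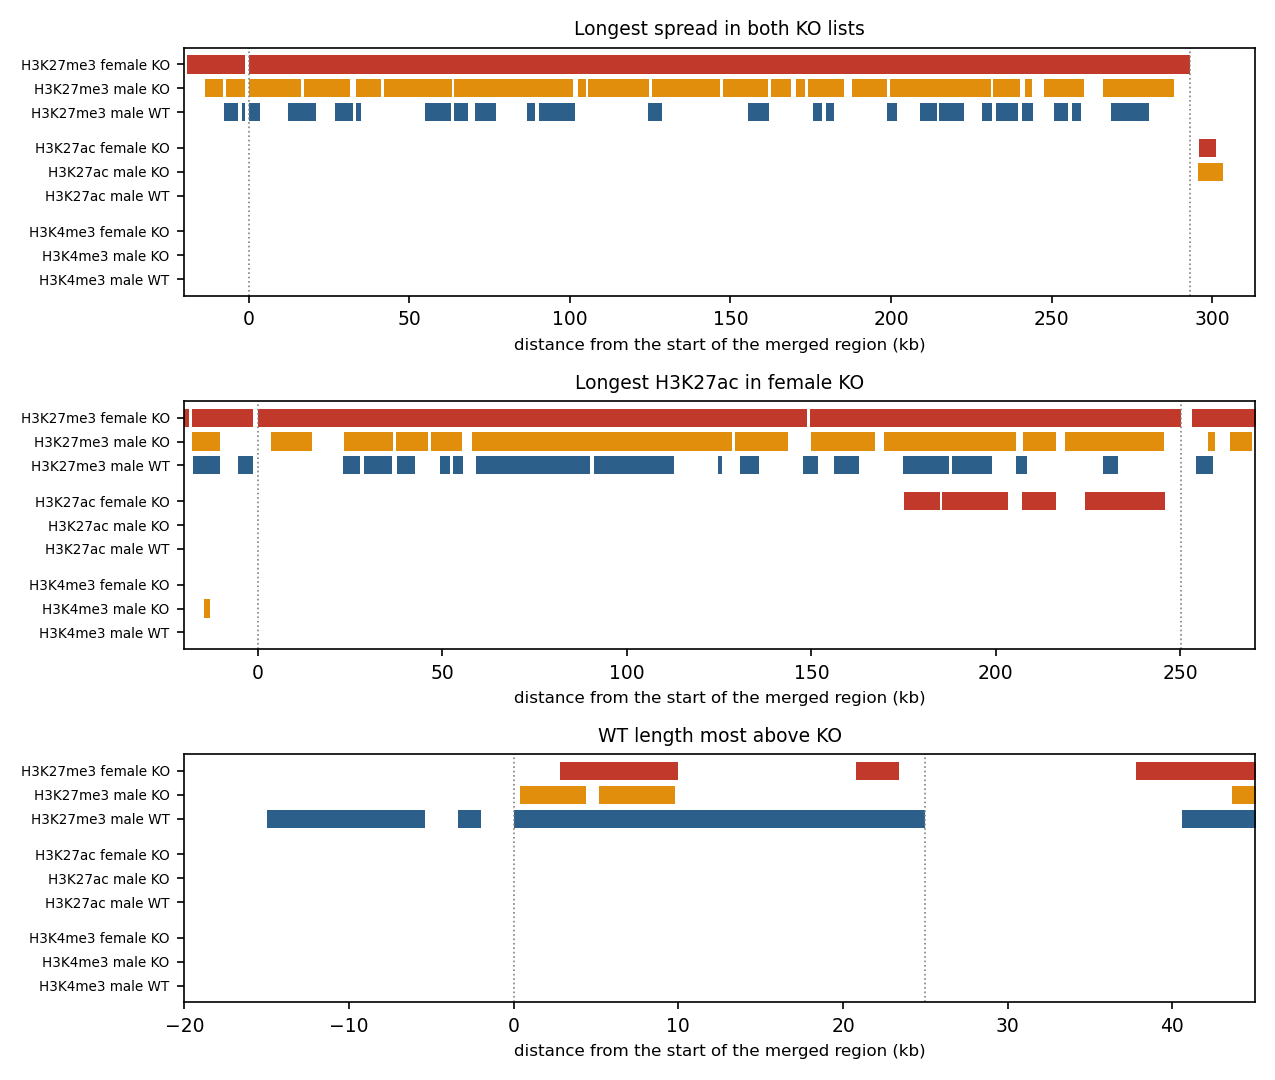
Islands of each mark and line (rows) along 3 members with 20 kb on each side (x axis, kb from the start of the merged region, whose ends are dotted). Top, the member with the longest spread by the smaller KO length, on chromosome 6, is 1 block in female KO and 22 islands in WT. Middle, another member on chromosome 6 holds H3K27ac of female KO alone. Bottom, in a member on chromosome 5 the WT island (25 kb) is longer than the KO islands.

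In some members the WT coverage was the longest. The largest excess of WT over the longer of the KO lengths was on chromosome 5 from 75742001 to 75767000, where female KO covered 9.8 kb with 306 reads, male KO 8.6 kb with 127 reads and male WT 25 kb, in 1 island, with 411 reads. On chromosome 12 from 119042801 to 119058600 the covered lengths were 3.4 kb in female KO, 5.8 kb in male KO and 15.8 kb in male WT. On chromosome 1 from 160878801 to 160899200 they were 9.2, 10.8 and 20.4 kb, with the nearest H3K4me3 247.6 kb away. On chromosome 17 from 44178201 to 44202600 they were 11.6, 9 and 20.8 kb, and on chromosome 6 from 35566401 to 35601400 they were 23.6, 17.8 and 32.4 kb. Male WT was the longest of the lines at each of these 5, which is how they were chosen. None of the 5 carried H3K27ac in any line.

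H3K27ac, which the rule did not use, was present in few members of any line. It overlapped 243 members in female KO (5.38%, exact 95% binomial interval 4.74 to 6.08%), against 12.2% of all merged regions. In male KO it overlapped 253 (5.60%, 4.95 to 6.31%), against 13%, and in male WT 176 (3.90%, 3.35 to 4.50%), against 9.55%. These intervals cover counting error over members, which are not replicates of a line, and the 3 shares are of the same members. Reads in H3K27ac regions numbered 12295125 in female KO and 11023981 in male KO, against 3989395 in male WT. With depth-scaled lists of both marks the shares over 1456 members were 10.6% in female KO and 8.86% in male KO, against 8.65% in male WT, so that male KO and male WT were nearly level. With lists of the same covered length they were 19.3, 21.0 and 17.3%, and with members taken from the 2 male lists 2.28, 2.40 and 1.33%. The background holds regions with H3K4me3, where H3K27ac is common: of the 2517 regions in all 3 lists with H3K4me3, 46.3% had H3K27ac in female KO and 54.0% in male KO, against 34.3% in male WT. Over all 25811 merged regions without H3K4me3, the shares were 4.38% in female KO and 4.33% in male KO, against 3.46% in male WT, slightly below those of the members. Those regions were shorter, with a median merged width of 5.4 kb. Per Mb of merged length, members held 12.3 kb of H3K27ac in female KO, 9.41 kb in male KO and 6.08 kb in male WT, against 23.7, 15.7 and 12.8 kb over all regions without H3K4me3.

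Width was tied to H3K27ac within the members. Of the 988 members of 5 to 10 kb, 0.911% had H3K27ac in female KO and 1.01% in male KO, against 0.607% in male WT. Of the 416 members of at least 50 kb, 18.3, 22.1 and 18.5% had it. The order of the lines was not kept among the widest members, where WT was level with female KO. Regions with H3K4me3 of 5 to 10 kb had H3K27ac in 26.3% for female KO, 37.6% for male KO and 16.6% for male WT. The share was lower in members in each line and in each of 5 width bands.

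Most members had no H3K27ac in any line, namely 4094 (90.6%), and 74 had it in all 3. No such joint count is given for other regions. Line by line, few of the 25811 merged regions without H3K4me3 had the mark either, at 4.38, 4.33 and 3.46% (female KO, male KO, WT). Its absence from most regions was thus not particular to members, although those regions were shorter and held more H3K27ac per Mb. H3K27ac of female KO without WT was found in 155 members (3.43%, against 5.2% of all merged regions) and the reverse in 88 (1.95%, against 2.54%). H3K27ac of male KO without WT was found in 144 (3.19%, against 5.23%) and the reverse in 67 (1.48%, against 1.8%). The H3K27ac lists of the KO lines were longer in all, with 198 Mb in female KO and 145 Mb in male KO against 109 Mb in male WT on autosomes. The H3K27ac regions that met members were weaker than the rest of their lists. Their density was 0.808 times the list median in female KO, 0.723 times in male KO and 0.751 times in male WT. They also met H3K4me3 less often. For female KO, 27.3% of them did, against 63.7% of the other regions of that list. The male KO shares were 9.003 against 57.5%, and those of male WT 10.2 against 60.5%. The rule kept H3K4me3 out of the members, and how far this sets the lower density was not tested.

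The lines differed in whether H3K27ac and H3K27me3 overlapped within a member. Of 1314.6 kb of H3K27ac in members in female KO, 1256.4 kb lay inside that line's own H3K27me3. In male KO it was 236.8 of 1008.6 kb, and in male WT 29.4 of 651.4 kb. In WT the 2 marks thus lay side by side within a member rather than on the same bases: in 152 of the 176 members with WT H3K27ac, none of it lay inside WT H3K27me3. In male KO this was so in 137 of 253 members and in female KO in 12 of 243. Because the merged borders follow female KO, its H3K27me3 also held 97.1% of the male KO H3K27ac and 98.5% of the WT H3K27ac in members. The share inside own H3K27me3 is therefore bound to be high for female KO.

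Per Mb of the line's own H3K27me3 in members, 12.7 kb was shared with its own H3K27ac in female KO, 3.06 kb in male KO and 0.560 kb in male WT. This rate depends on the merging as well, since per Mb of female KO H3K27me3 in members 9.92 kb was shared with male KO H3K27ac and 6.498 kb with male WT H3K27ac. Its islands thus met much H3K27ac of any line. With depth-scaled lists of both marks these were 16.6, 2.48 and 0.659 kb, and with H3K27me3 lists of the same covered length 21.6, 3.79 and 0.760 kb. The overlap was not limited to members, since 10.5% of the whole autosomal H3K27ac length lay inside own H3K27me3 in female KO and 3.03% in male KO, against 0.389% in male WT. A longer H3K27me3 list meets more H3K27ac by its length alone, and the autosomal lists covered 329, 237 and 145 Mb. What share of the overlap the list length alone would give was not tested. The 2 marks were measured in separate libraries of many cells, so overlap of the lists does not show both marks on the same chromosome.

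**Figure D5:**
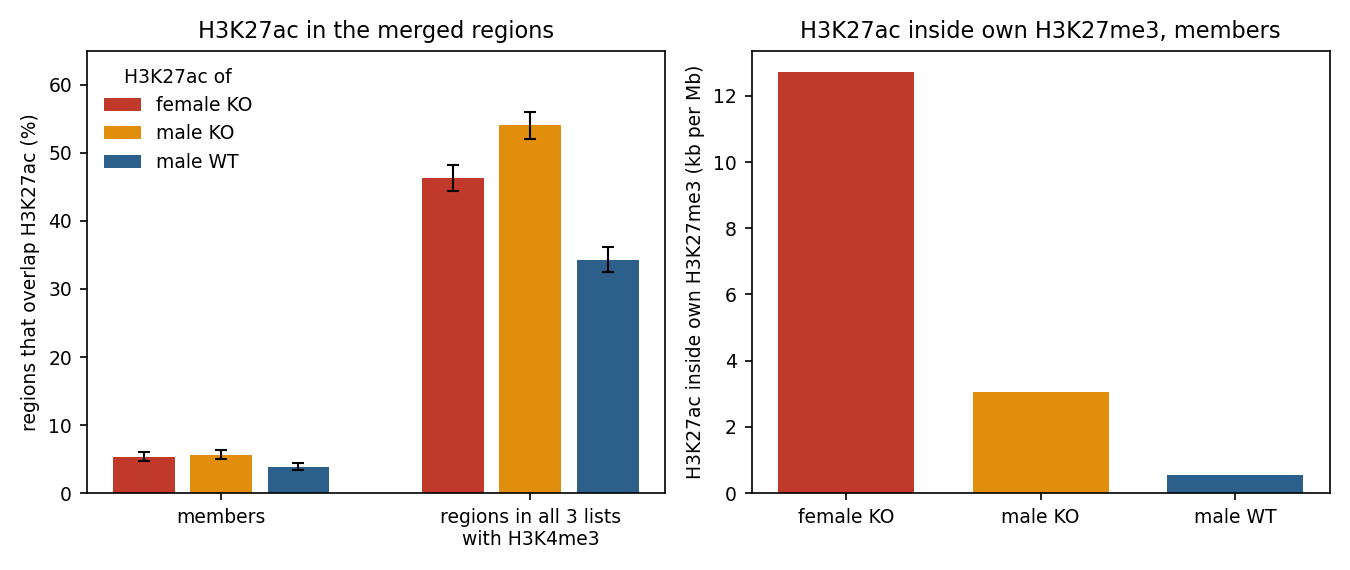
Left, share of regions (y axis, %) that overlap H3K27ac of each line, for the 4517 members and the 2517 regions in all 3 lists with H3K4me3; bars show the share and error bars exact 95% binomial intervals. Right, H3K27ac length inside the line's own H3K27me3 in members (y axis, kb per Mb of H3K27me3; no replicate, so no error bar). H3K27ac is far rarer in members, and the overlap of the 2 marks is 12.7 kb per Mb in female KO and 3.06 in male KO, against 0.560 in male WT.

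Members were also split by WT H3K27ac, as a description, since most WT H3K27ac in members lay outside WT islands and the KO islands helped to set which members hold it. The 176 members with WT H3K27ac had a median length outside WT islands of 26.2 kb in female KO and 10.7 kb in male KO. The 416 with WT H3K27ac outside the member but within 10 kb had 9.9 and 4.4 kb, and the 3925 with none within 10 kb had 5.8 and 4.2 kb. The median merged width was 45.7, 18.8 and 15.4 kb in these classes. In male KO the classes with H3K27ac near and with none thus differed little. The WT covered length differed less, at 11, 6.4 and 6.6 kb. Of the WT H3K27ac length in members, 98.5% was covered by H3K27me3 of female KO and 30.8% by that of male KO.

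The members named next were chosen for the longest H3K27ac of a line, so a difference between lines in that mark follows from the choice. The longest H3K27ac of female KO in a member was 58.2 kb, all inside its own H3K27me3, on chromosome 6 from 83983201 to 84233400. Male KO and male WT had no H3K27ac there, while H3K27me3 covered 249.4 kb in female KO, 214.6 kb in male KO and 122.8 kb in male WT. The next were both on chromosome 9, from 61434001 to 61515400 with 34.4 kb and from 48439401 to 48547600 with 34.2 kb of female KO H3K27ac. Of these, 32.8 and 34.0 kb lay inside female KO H3K27me3, and the male lines had at most 0.6 kb of H3K27ac at either.

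The longest H3K27ac of male KO in a member was on chromosome 8 from 126243401 to 126325800, where all 3 lines carried the mark, over 19.8 kb in female KO, 30.8 kb in male KO and 22.8 kb in male WT. H3K27me3 covered all 82.4 kb in female KO, 28.2 kb in male KO and 7.8 kb in male WT, and 2.4 kb of the male KO H3K27ac and none of the WT H3K27ac lay inside own H3K27me3. H3K4me3 was 2 kb away. On chromosome 17 from 26581801 to 26630600, male KO alone had H3K27ac, over 21.2 kb, of which 5.8 kb was inside its H3K27me3. On chromosome 1 from 184474601 to 184633400, male KO had 19.4 kb of H3K27ac and male WT 5.2 kb, and H3K27me3 covered 158.8 kb in female KO, 40.2 kb in male KO and 48 kb in male WT.

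The longest H3K27ac of WT in a member was on chromosome 2 from 170217401 to 170288400, where it covered 9.4 kb in female KO, 6.8 kb in male KO and 23.6 kb in male WT. H3K27me3 covered all 71 kb in female KO, 54 kb in male KO and 10.8 kb in male WT, where it shared no base with H3K27ac. On chromosome 9 from 60733201 to 60806600, H3K27ac covered none in female KO, 3.6 kb in male KO and 14.8 kb in male WT. H3K27me3 there was 73.4 kb in female KO, 43 kb in male KO and 2.6 kb with 37 reads in male WT. Both had less H3K27ac in the KO lines, while the member on chromosome 8, second by WT H3K27ac, had more in male KO (30.8 kb) than in male WT (22.8 kb). All 3 were chosen for their WT H3K27ac.

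Chromosomes contributed unevenly. Members made up between 11.3% of the merged regions on chromosome 3 and 19.6% on chromosome 5, apart from chromosome 4, with 54 members or 3.36%. The H3K27me3 lists held 1193 regions over 24.1 Mb on chromosome 4 in female KO and 1543 over 12.8 Mb in male KO, against 635 over 2.49 Mb in male WT. H3K4me3 regions on that chromosome were similar in number, with 954 in female KO and 1055 in male KO, against 968 in male WT. They covered 6.14, 4.08 and 4.24 Mb. H3K27ac regions there numbered 1271 over 12.3 Mb in female KO and 1331 over 8.14 Mb in male KO. In male WT they numbered 957 over 4.12 Mb. The cause of these differences was not tested. The 54 members had median ratios of 5.32 in female KO and 2.36 in male KO. The lowest ratios were on chromosome 19, where 156 members had a median of 1.34 in female KO and 1.02 in male KO. Without chromosome 4, the median ratios over all members were 1.80 and 1.41.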

How the data were processed

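Each library has 1 deposited list without a header, which holds the position of every region and a whole number. That number was taken to be each region's read count, from its whole values and the usual SICER layout, and the authors deposited it with no visible normalization. The submitters' processing notes name Bowtie 1.1.2, SICER 1 and build mm9. Which control and false discovery rate were used, and the total reads, is not given in the sources used here. Every start and end lay on a 200 bp grid, and the deposited ends are included bases, so 1 was added to starts and ends to give 1-based mm9 positions.

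Merging, covered length, spread (KO length outside WT islands) and overlap were computed in 200 bp bins with numpy 2.4.6, scipy 1.17.1 and pandas 2.3.3 under Python 3.11.15, and plots were made in matplotlib 3.10.9. Intervals of shares are exact (Clopper-Pearson). Of 11 values recomputed with bedtools 2.31.1, 0 differed, and 460 of 460 planted members were recovered from simulated lists with the right lengths, which checks the arithmetic only. Regions of different lists that touch without overlap were kept apart. Density is the sum of counts over covered kb. For depth-scaled lists, counts were multiplied by the ratio of the shallowest list's reads to the list's own over bins held by all 3 lists, and regions under the 5th percentile of the shallowest list's reads per kb were left out.

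Members were named by rule: the 5 widest, the 5 densest in WT with at least 5 kb covered there, the 5 with the longest spread by the smaller KO length, the 5 in which WT most exceeds the longer KO length and, per line, the 3 with the longest H3K27ac, 25 distinct members in all. The members and rules were chosen with earlier results of these data known. A joint count of members longer in both KO lists than in WT was planned and is not reported, since both ratios share the WT list. No gene or sequence is given, because no mm9 annotation or genome was used here.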

Additional observations from a re-analysis of the deposited data

How the results depend on the processing

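The 12 main values were recomputed under 10 alternatives, 2 of them chosen after seeing the data (some length held by all 3 lists at once, and touching regions joined), and 66 of 119 recomputed values stayed within 1.5 times the reported value (counts and kb per Mb) or within its 95% interval (exact binomial for shares, by order statistics for medians). The overlap of the 2 marks was also added after seeing the data. The median KO over WT length stayed above 1, WT had the lowest share of members with H3K27ac, and the overlap of the 2 marks kept the order female KO, male KO, WT in each alternative. Only the depth-scaled lists scaled H3K27ac for depth, and there male KO (8.86%) and WT (8.65%) were nearly level. The other alternatives left H3K27ac unscaled, so the order kept in them is no check against depth. Values are given below for female KO, male KO and WT in that order. The number of members was 1744 with 50% coverage by each list, 481 with lists of the same covered length, 1456 with depth-scaled lists and 10095 from the 2 male lists. The length ratio over WT was 1.96 in female KO when weaker regions, below their list's median count, were dropped, 1.87 and 1.45 with gaps under 2 kb joined, 1.28 and 1.14 with 50% coverage, 1.73 and 1.23 with equal list lengths, 1.32 in male KO with depth-scaled lists, and 1.17 and 1.33 from the male lists, where female KO was counted only inside the male regions. Relative density was 1.15, 1.08 and 1.02 without the weaker regions, 0.973, 1.01 and 0.975 with gaps joined, 1.09, 1.09 and 1.01 with 50% coverage, 0.908, 1.05 and 1.07 with equal lengths, 0.991, 1.08 and 1.04 with depth-scaled lists, and 1.01 in female KO at least 5 kb from H3K4me3. It crossed 1 in female KO under 3 of these and in WT under 4, and the cause was not tested. The share with H3K27ac was 7.28, 6.39 and 4.83% without the weaker regions, 6.85, 7.25 and 4.98% with gaps joined, 4.19, 4.07 and 2.87% with 50% coverage, 19.3, 21.0 and 17.3% with equal lengths, 10.6, 8.86 and 8.65% with depth-scaled lists, 2.28, 2.40 and 1.33% from the male lists, and 4.13% in female KO and 3.26% in WT at least 5 kb from H3K4me3. The overlap was 7.99 kb per Mb in female KO and 0.371 in WT with 50% coverage, and 21.6 in female KO with equal lengths. Density of female KO was not computed from the male lists. No paired analysis was possible because each mark and line had 1 library. The total depth is not known. The depth-scaled and equal-length lists drop whole regions and leave kept islands at their called length. The part of depth in the covered lengths was therefore not tested.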
